A study of Mus musculus with 74 samples.

Results

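The intestinal stem cell genes described here are Lgr5, Olfm4, Ascl2, Axin2, Smoc2, Rnf43, Znrf3, Sox9, Lgr4 and Bmi1, 10 of the 24015 genes in the deposited table of RNA-seq counts. They were chosen by name, and all 10 were found in the table and tested in every comparison. The study followed epithelium of the developing mouse gut, and 31 of its 74 samples were RNA-seq libraries in 15 groups. Each group held 2 libraries, except 3 in the group labelled deleted at E10. The other 43 samples, of ATAC-seq and ChIP-seq, were not analysed here. The embryonic wild-type mice were of the CD1 strain. Forestomach (the squamous part of the mouse stomach), hindstomach (its glandular part) and small intestine of these embryos were taken at E12, E14 and E16, with small intestine at E18 in addition. The labels give the cells of the E12 and E14 intestinal libraries as midgut.

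Knockout embryos carried floxed alleles of Cdx2, which encodes a homeodomain factor of the intestinal epithelium, on a mixed B6;129 background. Deletion at E10 used Shh-Cre with no treatment, and the tissue was taken at E16. Deletion at E13 (tissue at E16) and at E15 (tissue at E18) relied on Villin-Cre, induced by a gavage of 5 mg tamoxifen. Adult ileum villi came from Cdx2f/f; Villin-Cre mice injected with 1 mg of tamoxifen on 5 days and from Cdx2f/f mice given sunflower oil on 5 days as the wild type, both B6;129 and taken 3 days after the last injection. Shh-Cre and Villin-Cre delete in epithelium. In the embryo, strain, Cre, tamoxifen and genotype cannot be told apart. Up to E16, cells were freed by trypsin, and those carrying Epcam, a protein of epithelial membranes, were sorted. Villi at E18 and in the adult were released with EDTA instead.

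Adult intestinal stem cells sit at the base of crypts and depend on Wnt signals. R-spondins bind the receptors Lgr4 and Lgr5 and thereby withdraw the membrane ligases Rnf43 and Znrf3, which otherwise remove Wnt receptors from the cell surface. Axin2 is a feedback inhibitor of the pathway inside the cell, Ascl2 and Sox9 are transcription factors, Olfm4 and Smoc2 encode secreted proteins that mark the crypt base in the adult, and Bmi1 is a Polycomb protein once used to mark slowly cycling cells. In the embryo the gut tube has no crypts: the intestinal epithelium is a layer of dividing cells until villi form, after which dividing cells are kept between the villi.

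Total counts ran from 5970227 to 62463167 per library. Levels are CPM values (counts relative to library size) scaled by TMM within the embryonic libraries and, apart from them, within the adult libraries, which were made with another kit. Levels are compared within a gene only, since the counts are not divided by transcript length. A member was called when edgeR's quasi-likelihood test gave a Benjamini-Hochberg adjusted p below 0.05 over all genes tested (17239 in the embryo, 12444 in the adult) and a log2 fold change of at least 1 in either direction. The percentages beside the counts of members are the share of all tested genes called in the same comparison. In bulk libraries, fewer cells of a type and less RNA per cell cannot be told apart.

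Some libraries stood apart or went against their labels. Cdx2 stood at 196 and 218 CPM in E16 intestine and at 14.5 to 27.5 CPM after labelled deletion at E10. It stood at 213 and 217.5 CPM where the label gives deletion at E13. E18 wild type, at 200 and 206 CPM, lay below both libraries labelled deleted at E15 (388 and 371 CPM), and adult wild type, at 242 and 248 CPM, below both adult knockout libraries (472 and 462 CPM). Cdx2 RNA therefore went against the label in these 3 groups, which are called libraries labelled deleted below, and counts over a whole gene cannot show the loss of an exon. In E16 forestomach, 4 epithelial markers took 0.0739 to 0.0826% of the counts, against 0.289 to 0.99% in the other embryonic groups. There, 8 mesenchyme and muscle markers took 1.83 to 2.26%, and 6 blood markers, of which the 4 adult globins were at 0, took 1.47 to 1.91%. In E12 hindstomach Cdx2 stood at 116 and 160 CPM, overlapping E12 intestine (153 and 115 CPM), against 12.7 and 6.20 CPM in E14 hindstomach. The stomach markers Sox2 and Cldn18 took 0.00114 to 0.00269% there, against 0.000478 to 0.00104% in E12 intestine and 0.0219 to 0.0246% in E12 forestomach. Their part in the E12 hindstomach comparisons was not tested.

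The R-spondin receptors Lgr5 and Lgr4 both rose in small intestine from E12 to E14. Lgr5 had 1.29 and 1.43 CPM in E12 small intestine, 29.9 and 32.4 at E14, 37.6 and 25.3 at E16, and 5.75 and 6.81 at E18. The E12 and E18 libraries were all below those of E14 and E16, which overlapped each other. Lgr5 rose from E12 to E14 by 4.51 on the log2 scale (SE 0.38, edgeR adjusted p 1.63e-07) and fell by 2.32 from E16 to E18 (SE 0.34, adjusted p 1.06e-05). Lgr4, the more widely expressed receptor, rose over the same first interval from 97.17 and 90.04 CPM to 285 and 340.5 CPM (log2 fold change 1.74, SE 0.19, adjusted p 2.69e-06). It fell by 1.76 to 88.0 and 96.7 CPM at E16 (SE 0.19, adjusted p 5.71e-07), and at E18 stood at 88.1 and 87.7 CPM, which was not called (-0.07, adjusted p 0.78). Lgr4 thus fell 1 interval before Lgr5.

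In the stomach, Lgr5 rose in hindstomach after E12 and fell in forestomach after E14. In hindstomach it had 4.09 and 3.08 CPM at E12, 20.7 and 21.0 at E14, and 43.0 and 27.7 at E16, and it rose from E12 to E14 by 2.54 (SE 0.34, adjusted p 1.7e-05). Over that interval Cdx2 in hindstomach went from 116 and 160 CPM to 12.7 and 6.20 CPM. The share of the stomach markers went from 0.00114 to 0.00269% up to 0.043 to 0.0508%, and the part of either in the rise was not tested. In forestomach Lgr5 had 13.7 and 16.1 CPM at E12, higher than in either other organ, and 13.2 and 10.5 at E14. At E16 only 8 and 3 counts were found in forestomach, or 1.24 and 0.459 CPM, a fall by 3.80 from E14 (SE 0.44, adjusted p 8.29e-07). The second of these counts is at the floor of 3, and without E16 replicate 1 the log2 fold change was -4.67. Lgr4 fell there by 2.52, from 151 and 161 CPM to 29.6 and 24.7 CPM (SE 0.20, adjusted p 7.06e-09). The mesenchyme, blood and epithelial marker shares of the E16 forestomach libraries moved with these changes, and their part in them was not tested.

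Rnf43, Znrf3 and Axin2, which restrain Wnt signalling, had their highest forestomach levels at E14. Rnf43 stood at 19.9 and 23.8 CPM in forestomach at E12, at 162 and 149 CPM at E14, and at 37.1 and 29.2 CPM at E16. The rise was 2.83 (SE 0.22, adjusted p 3.43e-08) and the fall 2.23 (log2 fold change -2.23, SE 0.22, adjusted p 1.06e-07). Znrf3 in forestomach rose from 16.31 and 16.04 CPM to 52.4 and 55.7 CPM (log2 fold change 1.74, SE 0.32, adjusted p 6.21e-04), and had 25.5 and 27.1 CPM at E16 (-1.04, adjusted p 0.0111), a call lost under RLE scaling, in DESeq2 and without E14 replicate 2 or E16 replicate 1. Axin2 rose from 1.13 and 1.73 CPM to 19.21 and 17.03 CPM (3.65, SE 0.54, adjusted p 8.41e-05), then fell by 2.75 to 2.32 and 3.06 CPM (SE 0.57, adjusted p 4.88e-04). From E14 to E16 the epithelial marker share of forestomach went from 0.368 to 0.377% down to 0.0739 to 0.0826%, and the mesenchyme and muscle share from 0.012 to 0.0122% up to 1.83 to 2.26%; their part in these falls was not tested. At E14 Rnf43 was higher in forestomach than in hindstomach, at 40.3 and 35.2 CPM, by 2.04 (SE 0.21, adjusted p 1.41e-06). For Axin2 the difference of 2.12 from hindstomach was called (adjusted p 0.00731), but not without hindstomach replicate 1 (adjusted p 0.085) or 2 (0.0701). For Znrf3 a difference of 1.28 was likewise called and lost without either hindstomach library (adjusted p 0.0751 and 0.0975) or without forestomach replicate 2 (0.0604).

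In small intestine the same 3 genes were called higher at E14 than at E12, and Axin2 rose from E16 to E18. Rnf43 rose from 18.4 and 27.4 CPM at E12 to 74.0 and 76.3 CPM at E14 (1.71, SE 0.21, adjusted p 1.12e-05). At E16 it had 25.9 and 38.8 CPM, a called difference of -1.22 that without replicate 1 of E16 was -0.96 and under the fold limit. Znrf3 had 5.04 and 14.4 CPM at E12 and 24.7 and 20.6 at E14 (1.22, adjusted p 0.00765, lost without E12 or E14 replicate 1 and 2.18 without E12 replicate 2), and it fell by 1.29 to 10.3 and 8.19 CPM at E16 (SE 0.32, adjusted p 0.00356). Axin2 had 1.18 and 2.93 CPM at E12, 5.14 and 6.67 at E14 (1.51, adjusted p 0.0317, lost without E12 replicate 1 or either E14 library and 2.31 without E12 replicate 2), 3.07 and 2.57 at E16 (-1.06, adjusted p 0.106), and 39.9 and 39.2 at E18. Both E18 libraries lay above every other wild-type embryonic library, and Axin2 rose from E16 to E18 by 3.81 (SE 0.55, adjusted p 7.92e-06). Tissue release changed from trypsin with Epcam sorting to EDTA over that last interval, and stage and release cannot be told apart.

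**Figure D1:**
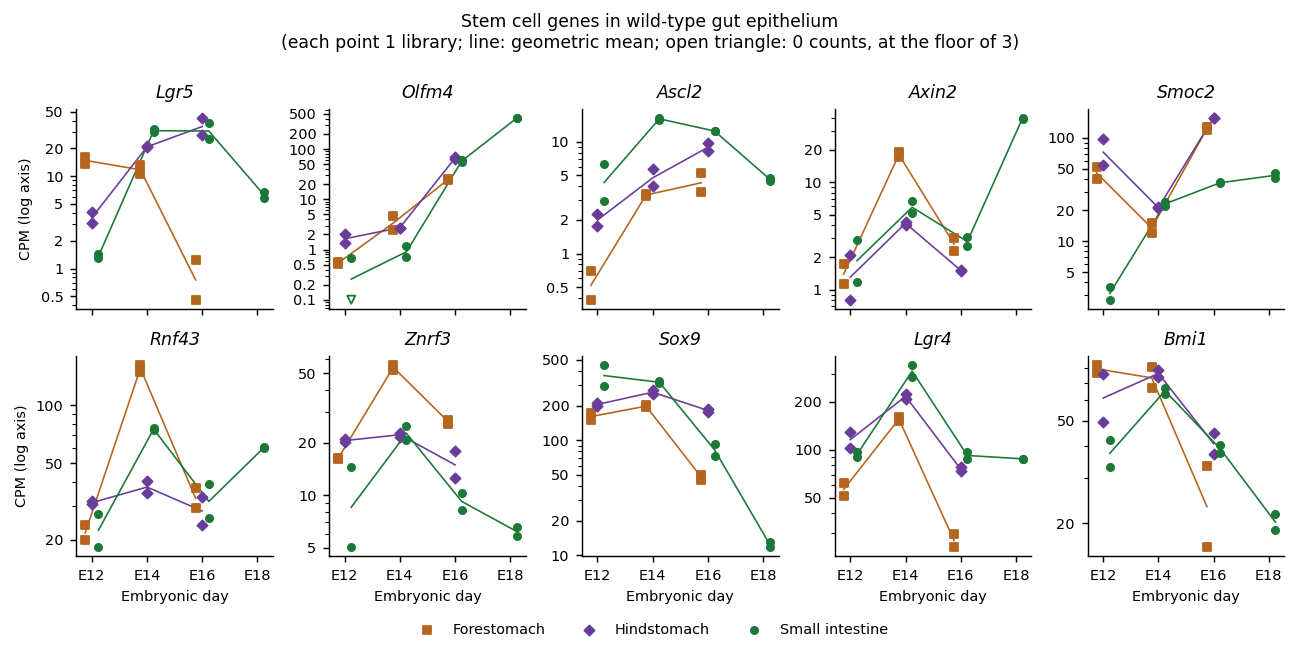
CPM on log axes against embryonic day for the 10 genes in wild-type forestomach (squares), hindstomach (diamonds) and small intestine (circles); each point is 1 library, lines join geometric means, and the open triangle is a library with 0 counts set at the floor of 3. Lgr5 is lowest in forestomach at E16, within forestomach Axin2 and Rnf43 are highest at E14, and Olfm4 and Axin2 are highest of the wild-type embryonic groups in small intestine at E18, Olfm4 at 408 and 420.2 CPM.

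Olfm4 and Axin2 were the members that rose from E16 to E18 in wild-type intestine, and Ascl2 was among those that fell, so the bases before their starts are shown. They are the 250 bases upstream of each start from RefSeq, in the build GRCm38.p6, written 5′ to 3′ on the gene's strand with CG pairs in capitals. The intervals are chr14:80000052-80000301 on the plus strand for Olfm4, chr11:108920099-108920348 on the plus strand for Axin2 and chr7:142969265-142969514 on the minus strand for Ascl2.
Olfm4: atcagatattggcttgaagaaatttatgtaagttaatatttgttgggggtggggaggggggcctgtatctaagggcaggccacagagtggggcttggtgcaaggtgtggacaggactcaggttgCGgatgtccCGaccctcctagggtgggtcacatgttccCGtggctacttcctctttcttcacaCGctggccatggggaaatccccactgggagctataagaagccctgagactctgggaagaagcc
Axin2: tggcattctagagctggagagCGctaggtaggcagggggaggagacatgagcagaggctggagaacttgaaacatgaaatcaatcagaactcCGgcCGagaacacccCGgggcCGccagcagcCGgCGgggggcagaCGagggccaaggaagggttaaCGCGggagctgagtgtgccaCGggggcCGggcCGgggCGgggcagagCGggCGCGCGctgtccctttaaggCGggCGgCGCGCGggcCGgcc
Ascl2: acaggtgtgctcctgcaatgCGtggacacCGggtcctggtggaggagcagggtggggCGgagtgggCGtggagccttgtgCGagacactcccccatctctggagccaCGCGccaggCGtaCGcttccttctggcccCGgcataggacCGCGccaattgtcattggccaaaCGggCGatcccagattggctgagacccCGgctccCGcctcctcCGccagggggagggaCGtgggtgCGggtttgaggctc
These windows held 4, 24 and 19 CG pairs, against a median of 6 over all 32851 windows of that length. Such windows were found for 6 of the 10 genes. They were searched on both strands for ATCAAAG, the core site of the TCF/LEF factors of the Wnt pathway, which 3.21% of all windows held, for TTTATNG, a CDX2 site (9.81%), and for the E-box CAGCTG (13%). No match was found in the 7 windows of Olfm4, Ascl2, Axin2, Rnf43 (with 2 starts), Lgr4 and Bmi1, which says only that these letters are absent there.

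Olfm4, which encodes a secreted olfactomedin, rose late. It had 0 and 21 counts in the E12 intestinal libraries (0 and 0.669 CPM), 1.16 and 0.71 CPM at E14, 56.0 and 59.5 at E16, and 408 and 420.2 at E18. The groups from E14 on did not overlap. Olfm4 rose by 5.85 from E14 to E16 (SE 0.40, adjusted p 2.18e-09) and by 2.84 from E16 to E18 (SE 0.32, adjusted p 4.52e-07). It also rose from E14 to E16 in hindstomach, from 2.75 and 2.71 CPM to 62.8 and 70.2 CPM (4.60, SE 0.37, adjusted p 3.83e-08), and in forestomach, from 2.48 and 4.59 CPM to 25.9 and 24.3 CPM (2.82, SE 0.36, adjusted p 3.23e-06). The rise in intestine minus that in hindstomach was 1.25 with an adjusted p of 0.106 in edgeR, and 1.29 with an adjusted p of 0.00379 in DESeq2. From E14 to E16 the immune marker share went from 0.000388 to 0.000523% up to 0.0674 to 0.0827% in hindstomach. It went from 0.000338 to 0.000376% up to 0.0538 to 0.0743% in forestomach, and from 0.00296 to 0.00344% up to 0.0143 to 0.0147% in intestine. Markers of enteric neurons and glia in hindstomach went from 0.00289 to 0.00303% up to 0.0518 to 0.0524%. Their part in the Olfm4 rises was not tested.

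Smoc2, which encodes a secreted matrix protein, was higher in both stomach regions than in intestine at E12. It had 97.0 and 54.7 CPM in hindstomach, 52.3 and 40.2 in forestomach, and 2.71 and 3.57 in small intestine. The difference from intestine was 4.59 for hindstomach (SE 0.25, adjusted p 4.28e-10) and 3.88 for forestomach (SE 0.24, adjusted p 2.04e-09). The E12 hindstomach libraries are a stomach region by label, while their Cdx2 level overlapped that of E12 intestine (log2 fold change 0.05). In intestine Smoc2 rose to 21.8 and 24.2 CPM at E14 (2.87, SE 0.23, adjusted p 1.43e-07), when all 3 organs lay between 12.1 and 24.2 CPM. At E16 hindstomach reached 156.8 and 157 CPM and forestomach 119 and 127 CPM, against 36.2 and 37.4 CPM in intestine. The mesenchyme and muscle markers were also higher at E16: from E14 to E16 their share went from 0.0141 to 0.0153% up to 0.704 to 0.722% in hindstomach, from 0.012 to 0.0122% up to 1.83 to 2.26% in forestomach, and from 0.0349 to 0.0405% up to 0.121 to 0.132% in intestine. Their part in the Smoc2 values was not tested.

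Sox9 fell in small intestine in both intervals after E14. It stood at 451 and 295 CPM at E12, 327 and 311 at E14, 93.2 and 73.3 at E16, and 11.8 and 13.1 at E18. From E14 on the stages did not overlap, and the falls were by 1.94 (SE 0.17, adjusted p 3.55e-08) and 2.74 on the log2 scale (log2 fold change -2.74, SE 0.18, adjusted p 2.66e-10). In hindstomach Sox9 had 251 and 272 CPM at E14 and 186 and 177 at E16, under the fold limit (-0.53, adjusted p 0.0148). The change in intestine minus that in hindstomach was -1.41 (SE 0.23, adjusted p 2.3e-04). Villus enterocyte markers took 0.0501 to 0.0522% of the counts of wild-type intestine at E12, 0.0466 to 0.0487% at E14, 1.20 to 1.25% at E16 and 4.92 to 4.94% at E18, and their part in the members' changes with stage was not tested.

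Ascl2, the other transcription factor, was lowest in forestomach at E12, at 0.388 and 0.699 CPM, and highest among wild-type groups in E14 intestine, at 16.4 and 15.7 CPM. It had 6.39 and 2.93 CPM in E12 intestine, 12.4 and 12.6 at E16, and 4.766 and 4.501 at E18, and it fell by 1.43 from E16 to E18 (SE 0.37, adjusted p 0.00296). Forestomach was below intestine at E12 (-3.07, adjusted p 3.9e-05), E14 (-2.26, adjusted p 2.03e-04) and E16 (-1.51, adjusted p 0.00309). The E12 value was -2.39 without E12 intestine replicate 1, and its call was lost when only the compared groups were fitted (-3.02, adjusted p 0.223). Over the 13 embryonic groups Bmi1 varied least, with its highest group mean 3.92 times its lowest, between 79.4 ± 3.81 CPM in E12 forestomach and 20.3 ± 2.06 CPM in E18 intestine (SD, n = 2). Its stage differences in intestine, 0.79, -0.74 and -0.94, were all under the fold limit, with edgeR adjusted p of 0.0339, 0.0364 and 0.00796.

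Counted together, 8 members were called higher and 0 lower at E14 than at E12 in small intestine, where 11.3% of all genes were higher and 4.89% lower (16.2% in all). The median log2 fold change was 1.62 over the members and 0.07 over all genes. That count was 5 without E12 replicate 1 or without E14 replicate 1, and 2 (Lgr5 and Lgr4) when only these 4 libraries were fitted. The calls lost without either of these replicates were those of Olfm4 (0.58 and 1.04), Axin2 (1.00 and 1.69) and Znrf3 (0.66 and 1.09), given as log2 fold changes. Without E14 replicate 2, Olfm4 (1.75) and Axin2 (1.32) were also lost. Ascl2, at 1.78, was 2.45 without E12 replicate 1. Without E12 replicate 2 only a library with 0 Olfm4 counts is left at E12, so no Olfm4 fold is given. From E14 to E16, 1 member was higher and 4 lower (13.7% and 11.9% of all genes, 25.6% in all), and from E16 to E18, 2 were higher and 3 lower (20.1% and 22.1%, 42.1% in all).

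In hindstomach the counts were 3 higher and 1 lower from E12 to E14 (10.8% and 6.46%, 17.2% in all) and 2 higher and 2 lower from E14 to E16 (16.5% and 5.50%, 22.0% in all). In the first interval the calls of Ascl2 (1.26) and Axin2 (1.502) were lost in turn: Ascl2 without E12 replicate 1 (1.09) or E14 replicate 2 (0.99), and Axin2 without E12 replicate 2 (0.97) or E14 replicate 1 (1.55) or 2 (1.46), and Axin2 was 2.35 without E12 replicate 1. In the second, Axin2 (-1.45) was lost without any of the 4 libraries (adjusted p 0.109 to 0.148). In forestomach 6 were higher and 1 lower from E12 to E14 (7.58% and 5.13%, 12.7% in all), with Smoc2 the lower gene, and 2 were higher and 7 lower from E14 to E16 (20.8% and 16.9%, 37.7% in all). The Znrf3 call in that last count (-1.04) was lost without E14 replicate 2 or E16 replicate 1 (-0.998 in each).

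Between organs, members were called in both directions. At E12 forestomach against hindstomach gave 1 higher and 3 lower (2.83% and 4.28%, 7.11% in all), forestomach against intestine 3 and 2 (5.37% and 4.72%, 10.1% in all), and hindstomach against intestine 4 and 1 (5.60% and 3.67%, 9.28% in all). At E14 these counts were 3 and 0 (2.85% and 5.62%, 8.46% in all), 4 and 3 (4.66% and 7.29%, 11.9% in all), and 1 and 1 (3.49% and 3.35%, 6.83% in all). Several of these counts rested on single libraries. Forestomach against hindstomach at E12 fell to 2 without either forestomach library, and at E14 to 1 without either hindstomach library. Forestomach against intestine fell to 3 at E12 without intestine replicate 1, and at E14 to 4 without forestomach replicate 1 or intestine replicate 2 and to 3 without forestomach replicate 2. Hindstomach against intestine fell at E12 to 2 without hindstomach or intestine replicate 1 and to 3 without hindstomach replicate 2, and at E14 to 1 without either hindstomach library or intestine replicate 2. At E16 the counts were 0 and 5 (6.27% and 13.8%, 20.1% in all), 2 and 4 (18.6% and 16.4%, 35.0% in all), and 2 and 0 (17.5% and 8.10%, 25.7% in all). The call of Ascl2 between forestomach and hindstomach at E16 (-1.03, adjusted p 0.0451) was lost without any of the 4 libraries. The E16 hindstomach and intestine differed by Smoc2 (2.09, SE 0.22) and Sox9 (1.12, SE 0.16). The Sox9 value was 0.96 and under the fold limit without E16 intestine replicate 2. Lgr5 at E16 was lower in forestomach than in hindstomach (log2 fold change -5.38, SE 0.44, adjusted p 2.73e-08) and than in intestine (-5.21, SE 0.44, adjusted p 1.27e-08). Without forestomach replicate 1, which leaves the library with 3 counts, these values were -6.25 and -6.08. Epithelial markers took 0.0739 to 0.0826% of the counts in E16 forestomach against 0.578 to 0.606% in hindstomach and 0.677 to 0.702% in intestine, and blood markers 1.47 to 1.91% against 0.122 to 0.172% and 0.0185 to 0.0186%. Mesenchyme and muscle markers took 1.83 to 2.26% against 0.704 to 0.722% and 0.121 to 0.132%. Their part in the E16 forestomach differences was not tested.

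**Figure D2:**
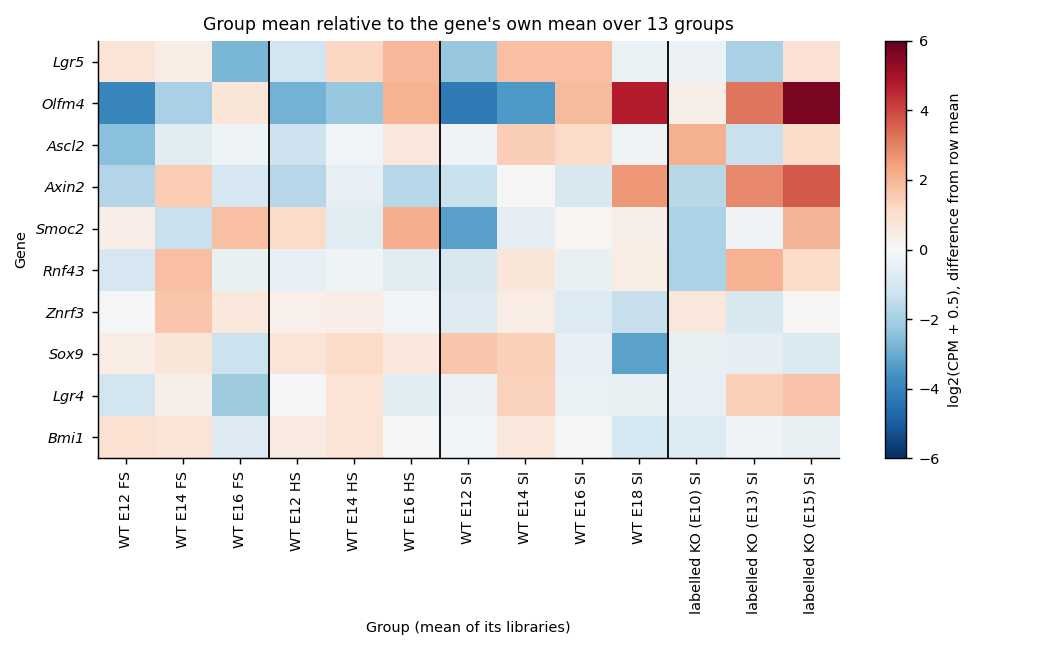
Group means of the 10 genes (rows) in the 13 embryonic groups (columns), as log2(CPM + 0.5) minus each gene's own mean over the groups; red is above and blue below that mean, and black lines separate forestomach (FS), hindstomach (HS), wild-type small intestine (SI) and the libraries labelled knockout. Olfm4 spans the widest range and Bmi1 the narrowest.

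The order of the groups differed from gene to gene. Lgr5 was highest in E16 hindstomach, E16 intestine and E14 intestine, at means of 35.4, 31.5 and 31.1 CPM, whose ranges overlapped. It was lowest in E16 forestomach, E12 intestine and the libraries labelled deleted at E13, at 0.847, 1.36 and 1.84 CPM, which did not overlap. Olfm4 and Axin2 were both highest in the libraries labelled deleted at E15, at 771 ± 13.2 and 82.3 ± 0.509 CPM (SD, n = 2), clear of the next group. Over the 13 group means of log2 CPM, Axin2 and Rnf43 were the most alike pair of members (Pearson r = 0.858) and Olfm4 and Sox9 the least (r = -0.79). These groups share organs, strains and stages, so the coefficients are a description.

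Among the 12205 genes with an average log2 CPM of at least 2, the 5 most like Olfm4, Axin2 and Lgr5 over the same 13 means were found by Pearson correlation. For Olfm4 they were Paqr7 (r = 0.978), Zbtb7a (0.963), Mir22hg, Pdk4 and Il15ra. For Axin2 they were Zfp598 (0.97), Smg5 (0.963), Slc9a8, Mink1 and Lrp4. For Lgr5 the highest was D10Bwg1379e, at 0.841, followed by Ncapd3, Lars, Ube3a and Mcf2l.

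The libraries labelled deleted at E10 held less Lgr5, Smoc2, Olfm4 and Rnf43 than E16 wild-type intestine and more Znrf3. Of the members 2 were higher and 4 lower, where 23.9% and 27.6% of all genes were called (51.5% in all). Lgr5 had 6.21, 9.23 and 4.57 CPM, all below both wild-type libraries, and fell by 2.23 (SE 0.30, adjusted p 2.09e-06). Olfm4 had 19.0, 22.7 and 17.5 CPM against 56.0 and 59.5 and fell by 1.54 (log2 fold change -1.54, SE 0.28, adjusted p 9.64e-05). Rnf43 had 10.7, 13.8 and 10.4 CPM against 25.9 and 38.8 (-1.48, SE 0.20, adjusted p 1.99e-06).

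Smoc2 fell in the same libraries to 7.08, 9.56 and 9.51 CPM (log2 fold change -2.09, SE 0.20, adjusted p 2.69e-08). Mesenchyme and muscle markers went with it, at 0.00851 to 0.0127% of counts against 0.121 to 0.132%, with 6 of 8 lower and 0 higher. Villus enterocyte markers were at 0.207 to 0.357% against 1.20 to 1.25%, with 4 of 8 lower and 1 higher. Both stomach markers, Sox2 and Cldn18, were higher, at 0.0717 to 0.0823% against 0.000174 to 0.000382%, as were both forestomach markers, Krt5 and Trp63, at 0.00244 to 0.0126% against 0 to 5.46e-05%. Of 6 proliferation genes, Mki67 (1.20) and Cdk1 (2.44) were higher and Mcm5 (-1.66) lower. The part of these markers and genes in the members' changes was not tested. Znrf3, the partner ligase of Rnf43, rose to 22.7, 32.6 and 25.3 CPM from 10.3 and 8.19 (1.54, SE 0.31, adjusted p 2.4e-04). The 2 ligases thus moved in opposite directions. Ascl2 had 21.98, 31.04 and 22.6 CPM against 12.4 and 12.6, a called difference of 1.02 (SE 0.34, adjusted p 0.0133). That call was lost without E16 wild-type replicate 1 (adjusted p 0.0716) or 2 (0.0658), or without deleted replicate 2 (log2 fold change 0.92). Axin2 had 0.401, 1.09 and 3.09 CPM, with 6, 13 and 25 counts, and was not called (-1.02, adjusted p 0.102). Without deleted replicate 3 it was (-1.96, adjusted p 0.00266). Sox9, at 76.4 to 93.8 CPM, and Lgr4, at 60.1 to 102.8 CPM, overlapped wild type. TMM scaling raised the CPM of the deleted libraries relative to E16 wild type. It takes most genes as unchanged, while 51.5% of all genes were called here. Ascl2 had 329, 370 and 183 counts in totals of 22997638, 21978170 and 12812432, against 246 and 230 in totals of 18306362 and 16685602. Sox9 had 1144, 1118 and 759 counts against 1853 and 1342. Per total count, Ascl2 thus differed by less than 1.02 and Sox9 was below wild type.

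The libraries labelled deleted at E13 held more Axin2, Rnf43, Lgr4 and Olfm4 than E16 wild type and less Lgr5 and Ascl2. They shared the E16 wild-type libraries as controls with the comparison above. Members higher were 4 and lower 2, against 18.7% and 20.8% of all genes (39.5% in all). Axin2 stood at 44.7 and 50.2 CPM against 3.07 and 2.57, a rise by 4.07 (SE 0.55, adjusted p 4.34e-06). Rnf43 had 190.2 and 189.5 CPM (2.55, SE 0.22, adjusted p 1.11e-08), its highest level in the embryonic series, and Lgr4 had 336 and 328 CPM (1.85, SE 0.19, adjusted p 1.2e-07). Olfm4 rose to 147 and 143 CPM (1.33, SE 0.31, adjusted p 0.00127).

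Lgr5 and Ascl2 went the other way. Lgr5 had 49 and 37 counts, or 2.03 and 1.65 CPM, and fell by 4.09 (SE 0.37, adjusted p 2.6e-08). Ascl2 had 1.74 and 1.96 CPM and fell by 2.75 (SE 0.39, adjusted p 7.73e-06). Smoc2, Znrf3, Sox9 and Bmi1 differed by -0.33, -0.16, -0.06 and -0.11 with adjusted p of 0.195, 0.716, 0.782 and 0.775. All 6 calls held without each of the 4 libraries in turn. Other markers moved too: 8 villus enterocyte markers took 2.62 to 2.71% of the counts against 1.20 to 1.25% in E16 wild type. Of these, Vil1 (1.84), Fabp2 (1.34) and Alpi (5.08) were called higher and Lct lower (-6.08). The enterocyte markers Fabp1, Apoa1, Apoa4 and Sis were not called. All 8 mesenchyme and muscle markers were lower, at 0.0021 to 0.00239%. Paneth cell markers were at 0.0331 to 0.0338% against 0.00856 to 0.0092%, with 2 of 4 higher and 0 lower, and stomach markers at 0.00504 to 0.00511% against 0.000174 to 0.000382%, with 1 of 2 higher. Of 6 proliferation genes, 1 was higher, Mki67 (1.33), and 3 were lower, Ccnb1 (-2.43), Mcm5 (-2.39) and Cdk1 (-1.61). Their part in the members' changes was not tested.

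Direct comparison of the libraries labelled deleted at E10 and at E13, both taken at E16, called 8 of the 10 members, 3 higher and 5 lower in the first (28.1% and 29.3% of all genes, 57.4% in all). Rnf43 differed most clearly, at 10.4 to 13.8 CPM against 189.5 and 190.2 (-4.03, SE 0.20, adjusted p 1.45e-12), and Axin2 by -5.09 (SE 0.51). The Axin2 value rests on 6, 13 and 25 counts after labelled deletion at E10 and was -6.03 without replicate 3 of that group. Ascl2 was higher after deletion at E10 by 3.77 (SE 0.39, adjusted p 5.25e-08). Sox9 (0.14, adjusted p 0.419) and Bmi1 (-0.62, adjusted p 0.0358) were not called.

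**Figure D3:**
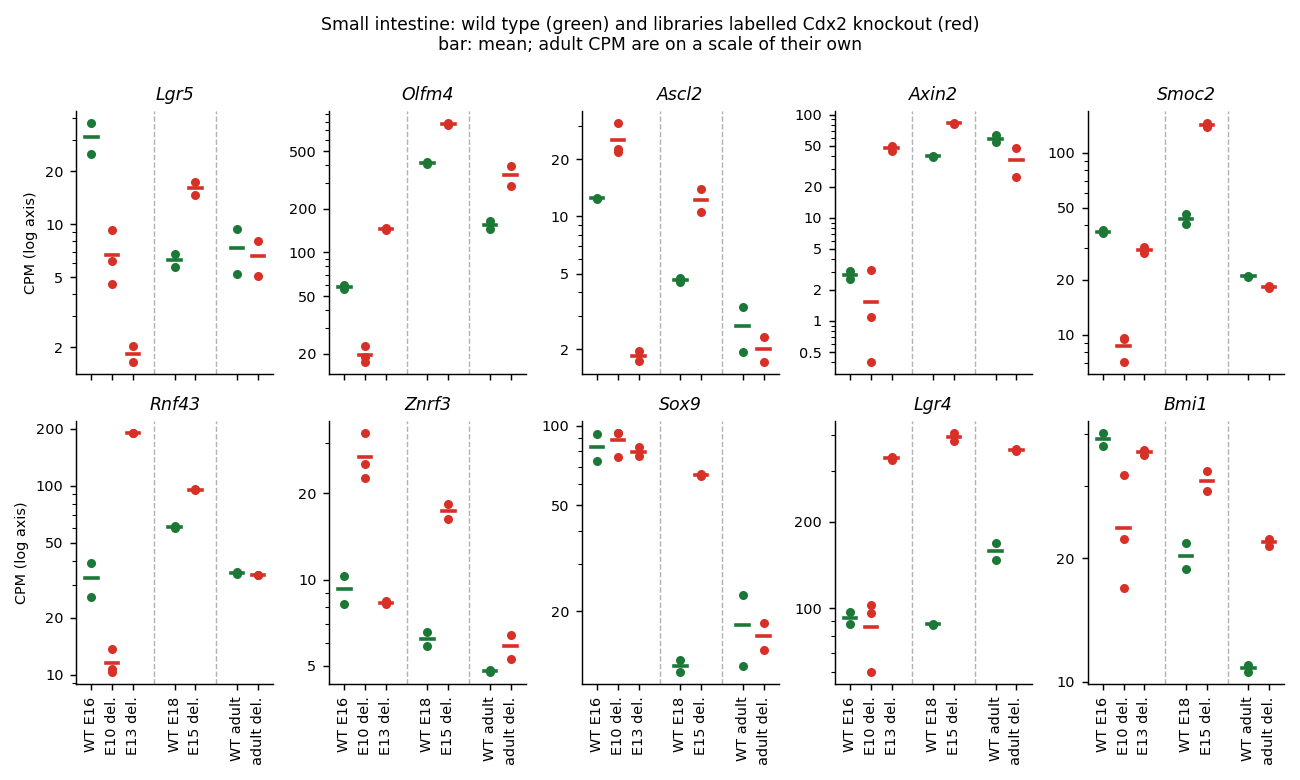
CPM on log axes in small intestine of wild type (green) and of libraries labelled Cdx2 knockout (red), with 1 point per library and bars at the mean; dashed lines separate tissue taken at E16, at E18 and in the adult, whose values are on a scale of their own. Lgr5 falls to 2.03 and 1.65 CPM in the libraries labelled deleted at E13 while Axin2 and Rnf43 rise there, and Sox9 and Lgr4 lie above E18 wild type in the libraries labelled deleted at E15.

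In the libraries labelled deleted at E15, 6 members were called higher than in E18 wild type. None was lower, where 7.79% of all genes were higher and 9.70% lower (17.5% in all), and the median log2 fold change was 1.38 over the members and 0 over all genes. Sox9 had 64.8 and 65.8 CPM against 11.8 and 13.1, a rise by 2.38 (SE 0.18, adjusted p 9.43e-09). Lgr4 had 381 and 407 CPM against 88.1 and 87.7 (2.16, SE 0.19, adjusted p 8.66e-08). Smoc2 had 145.5 and 139 CPM against 46.2 and 40.8 (1.71, SE 0.21, adjusted p 6.22e-06), while mesenchyme and muscle markers were at 0.000677 to 0.000743% against 0.00262 to 0.00276%. Znrf3 rose from 5.84 and 6.53 CPM to 16.3 and 18.4 CPM (1.49, SE 0.33, adjusted p 0.00195).

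Lgr5 had 14.7 and 17.5 CPM against 5.75 and 6.81 (1.35, SE 0.33, adjusted p 0.00405), and Ascl2 had 13.9 and 10.6 CPM against 4.766 and 4.501 (1.40, SE 0.37, adjusted p 0.00693). The Lgr5 call was lost without E18 wild-type replicate 1 (adjusted p 0.0533), and that of Ascl2 without wild-type replicate 2 (0.0648) or deleted replicate 1 (0.0707). Olfm4 had 761 and 780.1 CPM against 408 and 420.2, under the fold limit (0.90, adjusted p 0.0299), as were Rnf43 (0.66, adjusted p 0.0198) and Bmi1 (0.60, adjusted p 0.115). Axin2, at 82.0 and 82.7 CPM against 39.9 and 39.2, differed by 1.06 with an adjusted p of 0.107. Other markers moved with the members. The share of 4 Paneth cell markers was 0.176% in both libraries against 0.0179 to 0.0188%, and 4 of 6 proliferation genes were higher, among them Mki67 (1.53) and Cdk1 (1.61). Enterocyte markers were at 2.65 to 2.74% against 4.92 to 4.94%, and immune markers at 0.000768 to 0.000807% against 0.0197%, with 3 of 5 lower and 0 higher. The part of these in the members' changes was not tested.

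The E13 and E15 comparisons, which share no library, differed in 7 members (37.9% of all genes). The effect labelled E13 minus that labelled E15 was -5.45 for Lgr5 (SE 0.495, adjusted p 3.8e-08), -4.15 for Ascl2 (SE 0.54), -2.44 for Sox9 (SE 0.24, adjusted p 8.55e-08), -2.04 for Smoc2 and -1.64 for Znrf3. For Axin2 it was 3.01 (SE 0.70, adjusted p 0.00158) and for Rnf43 1.89 (SE 0.29). Lgr4, called higher in both, differed by -0.32 (SE 0.26, adjusted p 0.359).

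**Figure D4:**
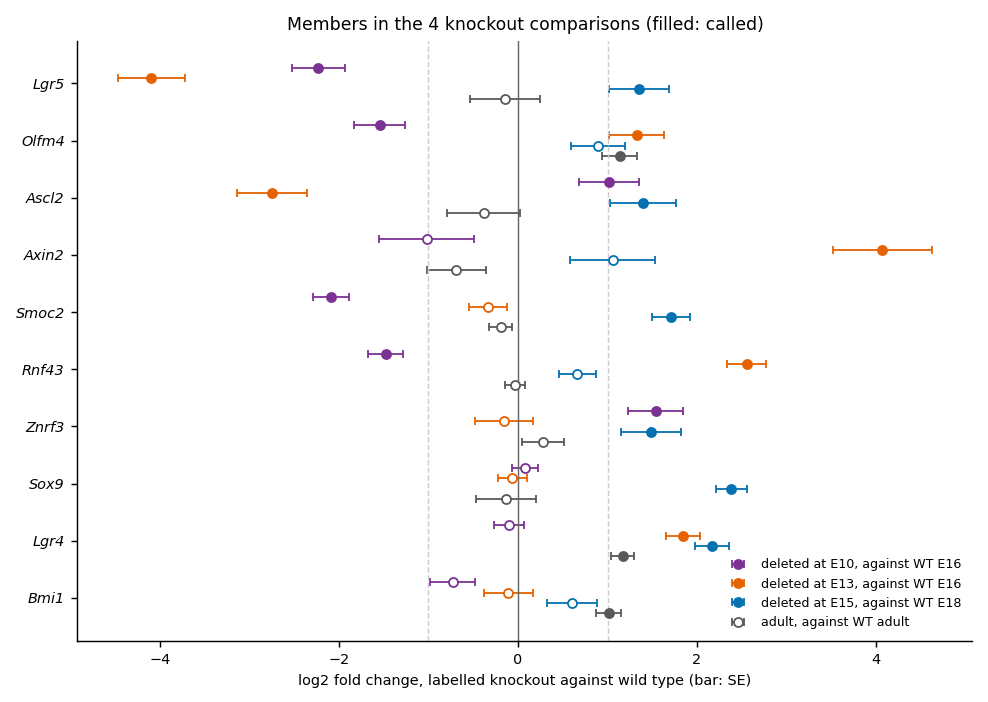
Log2 fold change (horizontal axis) of each member, with bars of 1 standard error, in the 4 comparisons of labelled knockout with wild type; filled points were called and dashed lines mark a log2 fold change of 1. Lgr5 runs from -4.09 after labelled deletion at E13 to 1.35 after labelled deletion at E15, and Lgr4 is called higher in 3 of the 4 comparisons.

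In adult ileum villi, the libraries labelled knockout had 3 members higher and 0 lower, where 8.41% of all genes were higher and 20.4% were called in either direction. Lgr4 had 359 and 351 CPM against 168 and 147, a rise by 1.17 (SE 0.13, adjusted p 0.00556) that was called without each library in turn. Olfm4 had 287 and 394.5 CPM against 145 and 165 (1.14, adjusted p 0.0156), and Bmi1 had 22.2 and 21.4 CPM against 10.57 and 11 (1.02, adjusted p 0.00926). Without wild-type replicate 1 only Lgr4 was called, with Olfm4 at an adjusted p of 0.0622 and Bmi1 at a log2 fold change of 0.99. Olfm4 was also lost without knockout replicate 2 (0.90), and Bmi1 without knockout replicate 1 (adjusted p 0.0567). Without the latter library Axin2, at 47.6 and 24.8 CPM against 63.3 and 53.9, was called at -1.21 (adjusted p 0.0472), having been -0.69 with it. Lgr5, at 8.07 and 5.07 CPM against 5.19 and 9.41, Ascl2 and Sox9 overlapped between groups, and Smoc2, Rnf43 and Znrf3 differed by less than 0.3 on the log2 scale. Other markers moved in these libraries: Paneth cell markers were at 0.131 to 0.163% against 0.293 to 0.434%, with 1 of 4 higher and 1 lower. Immune markers were at 0.000385 to 0.000496% against 0.00242 to 0.00557%, with all 3 of those tested lower. Markers of enteric neurons and glia were at 0.0235 to 0.0313% against 0.00054 to 0.0011%, with 1 of 5, Ret, tested and higher. Their part in the members' changes was not tested.

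Other genes of the pathway went both ways. Of 15 listed Wnt pathway genes, 6 were higher and 4 lower in the libraries labelled deleted at E13 (18.7% and 20.8% of all genes). The list holds mostly targets and feedback genes, but also the signal transducers Ctnnb1 and Tcf7l2. Ctnnb1 (1.13) was among the higher genes. Sp5, a Wnt target, was at 48.8 and 52.2 CPM against 0.101 and 0.437 (7.55, SE 0.42, adjusted p 3.49e-11), and the Wnt target Ephb3 rose by 2.70 (SE 0.27). The floor of 3 counts is at 0.151 and 0.164 CPM in E16 wild type, above the lower Sp5 value, so the size of the Sp5 change is uncertain. The extracellular inhibitor Apcdd1 (-4.59) and the feedback gene Nkd1 (-1.88, adjusted p 0.0291) fell. In the E10 comparison 2 were higher and 4 lower (23.9% and 27.6% of all genes), with Sp5 again higher (4.16) and the transcription factor gene Tcf7 lower (-3.17). The other higher gene was Tcf7l2 (1.06), and Ctnnb1 (-1.27) was among the lower. In the E15 comparison 2 were higher and 3 lower (7.79% and 9.70% of all genes), with Nkd1 at 6.87 and 6.88 CPM against 0.329 and 0.439 (4.11, adjusted p 9.97e-04) and Sp5 lower (-1.06, adjusted p 0.00815). The wild-type Nkd1 values lie near the floor of 3 counts, at 0.247 and 0.165 CPM in E18 wild type. Medians over the list were 0.16, -0.61 and 0, against -0.05, -0.10 and 0 over all genes. In the adult 11 of the 15 were tested, and 0 were higher and 3 lower, among them Sp5 (-2.00, adjusted p 0.0173), where 20.4% of all genes were called.

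Of 13 other stem or progenitor genes, 8 were higher and 0 lower in the libraries labelled deleted at E15 (7.79% and 9.70% of all genes), with a median of 1.55 against 0 over all genes. Tnfrsf19, which encodes a receptor of the TNF family found in adult stem cells, was at 16.4 and 16.5 CPM against 1.56 and 1.65 (3.35, SE 0.37, adjusted p 1.3e-06). Igfbp4, which encodes a secreted IGF-binding protein, was at 83.9 and 87.7 CPM against 8.05 and 8.95 (3.33, SE 0.16, adjusted p 5.78e-11). In the E13 comparison 2 of these 13 were higher and 4 lower (18.7% and 20.8% of all genes), with Hopx, a homeodomain-only gene, at 2.89 and Mex3a at -1.73. In the E10 comparison 3 were higher and 6 lower (23.9% and 27.6% of all genes).

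Genes linked to fetal or regenerating epithelium were mostly higher after labelled deletion at E10. Of 6 such genes, 5 were higher and 0 lower (23.9% and 27.6% of all genes), with a median of 4.64 against -0.10 over all genes. Clu, which encodes the chaperone clusterin, stood at 2505 to 5864 CPM in the 3 libraries labelled deleted at E10 against 25.7 and 36.3 CPM (7.03, SE 0.31, adjusted p 1.21e-12). Clu was also called higher in the E13 (2.90, SE 0.26), E15 (3.50, SE 0.39) and adult (3.44, SE 0.43) comparisons. Of the R-spondin genes themselves, ligands made mainly outside the epithelium, 0 were called higher in the 3 embryonic comparisons. Rspo2 had 0 counts in all libraries labelled deleted at E10 or E13 against 0.453 and 1.09 CPM in E16 wild type, and Rspo3 had 0 counts after labelled deletion at E13 against 2.62 and 3.77 CPM. These falls were called (adjusted p 0.0325, 0.0382 and 2.09e-04), beside the lower mesenchymal marker shares given above, whose part was not tested.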

How the data were processed

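RNA-seq counts in 31 libraries were used, as whole-number counts per gene that the authors deposited without normalization; reads were 75 bp single-end, per the labels' protocols. Bowtie2, STAR 2.5.3a, MACS2, HTSeq and mm9 are named in the submitters' processing notes, without roles. Strand setting and annotation are not given in the sources used here, so overlapping and antisense genes cannot be told apart. The adult columns had 2 blank cells each and were closed up; of the members only Znrf3 lies below a blank, where Spearman correlations with E18 across genes went from 0.283 to 0.297 up to 0.931 to 0.962 between the blanks and from 0.483 to 0.495 up to 0.957 to 0.973 below them. The table's 2 count columns of no sample here were not used.

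The test was that of edgeR 4.0.16 under R 4.3.3 (TMM, filterByExpr with a minimum count of 10, glmQLFit and glmQLFTest), with the 27 embryonic libraries in 1 fit and 4 adult libraries in another, and checked on simulated data. Standard errors are the log2 fold change over the square root of F. Nothing says that libraries of a group came from separate animals, so p-values may measure technical spread. Replicate chi-square per degree of freedom ran from 1.53 to 132. Members, gene lists and tests were chosen with earlier results of these data known. Named genes are the 10 members, Cdx2, genes of the fixed lists, and for Lgr5, Olfm4 and Axin2 the 5 genes most like each. Promoter windows came from RefSeq GRCm38.p6, and no coordinates were compared with mm9. Alternatives were DESeq2 1.42.0, RLE scaling, no filter, a replicate block, no minimum fold change, fits of the compared groups only, all 31 libraries in 1 fit, adult columns as deposited, leaving out each library, and, added after seeing marker levels, a fit without the E16 forestomach and labelled E13 libraries.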

Additional observations from a re-analysis of the deposited data

Results flagged for a closer look

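Differences between 2 effects, tested as contrasts in edgeR, passed the threshold for these members. The effect of labelled deletion at E10 minus that at E13, on the log2 scale, was 1.86 for Lgr5, -2.87 for Olfm4, 3.77 for Ascl2, -5.09 for Axin2, -1.75 for Smoc2, -4.03 for Rnf43, 1.69 for Znrf3 and -1.95 for Lgr4. The adjusted p ran from 1.45e-12 (Rnf43) to 7.6e-05 (Znrf3). Both arms share the E16 wild-type libraries, so this is a direct comparison of the 2 labelled groups.

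The effect labelled E13 minus that labelled E15 was -5.45 for Lgr5, -4.15 for Ascl2, 3.01 for Axin2, -2.04 for Smoc2, 1.89 for Rnf43, -1.64 for Znrf3 and -2.44 for Sox9, with adjusted p from 3.8e-08 (Lgr5) to 0.00691 (Znrf3). The change from E14 to E16 in small intestine minus that in hindstomach was -2.22 for Smoc2 (adjusted p 4.31e-05) and -1.41 for Sox9 (adjusted p 2.3e-04), and 13.1% of all genes differed there. No group held 4 or more libraries, so single libraries were not tested as outliers.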

How the results depend on the processing

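Of 230 member values, 119 were called, and 0 reversed under any alternative. RLE scaling kept 114 of these calls, DESeq2 116, the fit without a filter 118 and the replicate block 118; without a minimum fold change 19 more were called. Fits of the compared groups only kept 80 of 99, and the fit without the E16 forestomach and labelled E13 libraries kept 68 of 75.

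With RLE the all-gene median shifted by over 0.1 in the comparisons of forestomach with hindstomach (0.146) and intestine (0.188) at E16, in the change from E14 to E16 in forestomach (0.257), hindstomach (0.134) and intestine (0.112), and between labelled E10 and E13 (0.101).

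Member counts moved by over 1.5 times when only the compared groups were fitted: to 2 for forestomach against hindstomach at E12, 1 for forestomach and 1 for hindstomach against intestine at E12, and 2 for intestine from E12 to E14. Without the E16 forestomach and labelled E13 libraries the count for hindstomach against intestine at E16 was 1. Leaving out 1 library at a time gave 2 to 4 members for forestomach against hindstomach at E12, 3 to 7 for forestomach against intestine and 2 to 6 for hindstomach against intestine at E12. At E14 the same comparisons gave 1 to 3, 3 to 6 and 1 to 2. Hindstomach against intestine at E16 gave 1 to 2, hindstomach from E12 to E14 2 to 4, intestine from E12 to E14 5 to 8, and adult villi 1 to 3.

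Replicate numbers do not pair the libraries: correlations of same-numbered deviations ran from -0.152 to 0.097 in 20 comparisons. With the replicate as a block, the labelled E10 comparison called 8 members, Axin2 at -1.97 (adjusted p 0.00296) and Bmi1 at -1.004. No other group has a replicate 3, so the block takes that library out of the comparison. This Axin2 value is close to the one given above without replicate 3. With the block the labelled E15 comparison called 7, with Axin2 at 1.06 (adjusted p 0.0431), and intestine from E14 to E16 6, with Axin2 at -1.05 (adjusted p 0.0489). Ascl2 between forestomach and hindstomach at E16 was lost (adjusted p 0.0517). Fitting all 31 libraries together kept the 3 adult calls, and adult columns as deposited kept them too but called Znrf3 at 1.08 from misplaced values. The cause of the other changes was not tested. Depth limits the low members: fewer than 50 counts lay behind both libraries for Lgr5 in E12 intestine, in E16 forestomach and after labelled deletion at E13, for Olfm4 in E12 forestomach and intestine, for Ascl2 in E12 and E16 forestomach and after labelled deletion at E13, and for Axin2 in E16 forestomach and hindstomach, and behind all 3 libraries for Axin2 after labelled deletion at E10.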
